A study of Saccharomyces cerevisiae with 12 samples.

Results

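Nrd1-unterminated transcripts (NUTs) are long noncoding RNAs of budding yeast that were defined as the transcripts extending past their normal end when the Nrd1 protein is removed from the nucleus. Nrd1 and its partner Nab3 bind short sequence motifs in nascent RNA and, with the helicase Sen1, end transcription of small nucleolar RNA (snoRNA) genes and of noncoding RNAs. The released RNA is normally trimmed or degraded by the nuclear exosome with the TRAMP complex, so many NUTs are scarce in cells with intact termination. The NUTs described here were chosen by their level: they are the 713 of 1526 NUTs in the deposited table whose mean normalized density over the 12 libraries was 0.01 or more. Normalized density is the number of reads per nucleotide of a feature, divided by a factor for each library. The minimum used only the mean over all libraries, and every one of the 713 passed the lower filter on low values used for testing. Of the 813 NUTs below the minimum, 390 also passed that filter and 1 had no reads.

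Total RNA was measured by stranded sequencing in 5 yeast strains that each lack a gene for an RNA helicase, and in their wild-type parent (WT). The strains, with 2 biological replicates each, carry a kanMX4 deletion of ECM32, SLH1, SKI2, DBP1 or DHH1 in the haploid BY4741 background (MATa his3Δ1 leu2Δ0 met15Δ0 ura3Δ0), which the WT strain shares without a deletion. All were grown in YPD at 30 °C to mid-log phase (OD600 0.5), and libraries were made from 50 ng of RNA after depletion of ribosomal RNA. The comparison asks how the level of each NUT differs when one helicase is missing. No strain here lacks Nrd1 or the nuclear exosome, so the NUTs were seen at the levels left by intact termination and decay.

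The deleted genes were checked against the labels first. ECM32, a helicase linked to translation termination, had 5 reads in the 2 ecm32 libraries together, against 1336 in WT. SLH1, whose product acts on stalled ribosomes, had 1 read in slh1, against 2537 in WT. DHH1, an activator of decapping, had 150 reads in dhh1, against 5008 in WT. SKI2, the helicase that feeds RNA to the cytoplasmic exosome, had 3094 reads in the libraries labelled ski2, against 3036 in WT, and it had 3 reads in the libraries labelled dbp1. DBP1, a relative of the initiation helicase Ded1, had 295 reads in the libraries labelled dbp1, against 226 in WT, and it had 6 reads in the libraries labelled ski2. These 4 libraries go against their labels, and they are called the libraries labelled ski2 and the libraries labelled dbp1 throughout. Depth was 8.79 to 17.7 M reads per library, and the a-specific mating genes were expressed in all 12 libraries at a summed density of 17.9 to 54.0, against 0.0746 to 0.175 for the 4 alpha-specific genes.

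Most of the 10 most abundant NUTs share their reads with a snoRNA, so the sequence just after snoRNA genes is shown. The 100 bases after the annotated end of 4 such genes are shown, from the RefSeq R64 genome and in the direction of transcription. SNR30 and SNR37 share reads with the 2 NUTs of highest density, SNR5 shares reads with a NUT that was lower in the libraries labelled ski2, and SNR13 was added because its terminator is a textbook case. Capitals mark the Nrd1 motifs GTAA and GTAG and the Nab3 motif TCTT, searched on the transcribed strand with overlaps allowed.
SNR30 (NUT0490), chrXII:199390-199489, plus strand: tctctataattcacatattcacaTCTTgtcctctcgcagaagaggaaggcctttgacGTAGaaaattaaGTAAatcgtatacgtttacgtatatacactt
SNR37 (NUT1169), chrX:227994-228093, minus strand: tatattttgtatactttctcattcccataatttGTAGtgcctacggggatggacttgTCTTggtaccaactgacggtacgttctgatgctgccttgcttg
SNR5 (NUT0738), chrXV:842607-842706, plus strand: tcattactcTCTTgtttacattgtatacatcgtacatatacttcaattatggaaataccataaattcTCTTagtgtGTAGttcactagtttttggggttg
SNR13 (NUT0167), chrIV:1403043-1403142, plus strand: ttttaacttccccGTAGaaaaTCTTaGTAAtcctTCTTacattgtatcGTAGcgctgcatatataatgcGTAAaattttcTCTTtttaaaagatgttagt

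The SNR13 flank held 4 Nrd1 motifs and 3 Nab3 motifs, and the SNR30 flank held 2 and 1. In all 4 windows no further gene was annotated on the same strand. Of the 30 snoRNA or other noncoding RNA genes that share reads with a NUT, 22 had both kinds of motif in these 100 bases, which is 73.3%. The same held for 25.9% of the 100-base windows after all 6413 annotated genes. An Nrd1 motif was found in 83.3% of the 30 windows, against 52.8% of the windows after all genes, and the Nab3 motif in 27 of the 30, against 52.6%. In 28 of the 30 the window held no further gene of the same strand, and 78.6% of these had both kinds of motif, against 26.2% of such windows over all genes. These shares describe the letters in the windows and carry no test. The length over which reads were counted equalled the annotated length for 774 of 5875 features and was equal or longer for 5865. Windows after protein-coding genes can thus lie inside the transcript, so the 2 sets of windows are not of like kind. Noncoding RNA genes that share no reads with a NUT were not set apart.

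The 713 NUTs spanned a wide range of levels. Mean density ran from 0.010 to 65.2 with a median of 0.0201, so that 355 lay under 0.02, 86 reached 0.1 and 39 reached 1. A median NUT had 17 to 39 reads in a library, and 707 of the 713 had reads in all 12 libraries. Their lengths were 138 to 8314 nucleotides with a median of 1287, and 175 measured 2000 nucleotides or more. The NUTs just inside the minimum, NUT0187, NUT0942 and NUT0496, had means of 0.01001, 0.01001 and 0.01001, and those just outside, NUT1457, NUT0114 and NUT0409, had 0.00997, 0.00995 and 0.00994.

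Many NUTs overlap other features, and the table counted a read for each feature it overlaps. A partner was sought for each NUT among the features listed beside it, as one whose reads never exceeded those of the NUT in any library and made up at least 70% of them, or as one that held at least 90% of its reads the other way round. This rule was written after the values were seen and carries no test. It paired 93 NUTs with a protein-coding gene, 30 with a snoRNA or other noncoding RNA gene, and 193 with an XUT, a CUT or another NUT. XUTs (Xrn1-sensitive unstable transcripts) and CUTs (cryptic unstable transcripts) are other classes of noncoding RNA. No partner was found for 397, which does not show that they overlap nothing, since the files give no NUT coordinates. NUT numbers run along the genome 2 times, with the first run ending at 816. If the first run is read as the plus strand and the second as the minus strand, all 87 annotated partners that held at least 90% of a NUT's reads lay on the strand of their NUT, as did all 7 of the other kind. Reads were thus counted by strand.

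The level of a NUT differed with its partner. The 30 NUTs with a snoRNA or other noncoding RNA gene had a median density of 7.40, the 93 with a protein-coding gene had 0.0569, the 397 with no partner had 0.0190, and the 193 with an XUT, CUT or NUT had 0.0158. The 713 NUTs held 4.28 to 5.86% of the reads of a library, and the 30 with a noncoding RNA gene took 77.4 to 83.6% of these. The library factors matched median ratios over the 76 snoRNAs to within 0.558%, whereas factors from ERCC spike-ins were off by up to 49.6% and those from protein-coding genes by up to 27.1%. All levels are thus relative to snoRNAs, and a common change of the snoRNA NUTs could not be seen.

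The NUT of highest density, NUT0490, shared 99.97% of its reads with SNR30, a snoRNA needed for making the small ribosomal subunit. It had densities of 66.5 and 63.7 in ecm32, 53.7 and 66.2 in slh1, 63.7 and 73.5 in the libraries labelled ski2, 60.7 and 71.6 in the libraries labelled dbp1, 74.7 and 60.5 in dhh1, and 59.4 and 68.4 in WT. The groups overlapped, and NUT0490 also had one of the 3 smallest ranges of strain means among the NUTs in the upper 25% by density, at 0.20 on the log2 scale. NUT1169, which shares reads with SNR37, had 44.5 to 59.1 over the 12 libraries. The next in density were NUT1162 with SNR190, NUT0255 with SNR82, NUT1342, for which the rule found no partner, NUT0258 with SNR10, NUT1320 with SNR86, NUT0891 with SNR63, NUT0605 with SNR83 and NUT0348 with SNR32. Of these 10, NUT1162 and NUT0605 passed the test in dhh1, at log2 fold changes of 0.67 and 0.49, and the remaining 8 had values of -0.04 to 0.40 there.

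Each deletion was compared with WT by limma-trend on log2 of density plus 0.00508, fitted over 9497 features of the table, and a NUT is called where the Benjamini-Hochberg adjusted p is under 0.05. With dhh1, 232 NUTs were lower and 34 higher. That is 32.5% and 4.77% of the 713, against 24.3% and 13.7% of all tested features. The libraries labelled ski2 had 74 NUTs higher and 7 lower (10.4% and 0.982%, against 39.3% and 0.737% of all features). Those labelled dbp1 had 47 higher and 3 lower (6.59% and 0.421%, against 17.2% and 0.411%). In ecm32 and in slh1, limma called none (0.0316% and 0.0421% of all features were higher and lower in ecm32, and 0.0% and 0.0105% in slh1), with 41 and 40 NUTs at an unadjusted p under 0.05, which is 5.75% and 5.61% of them, against 8.69% and 7.03% of all features. An F test over the 6 strains called 397 NUTs, 55.7%, against 67.6% of all features.

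**Figure D1:**
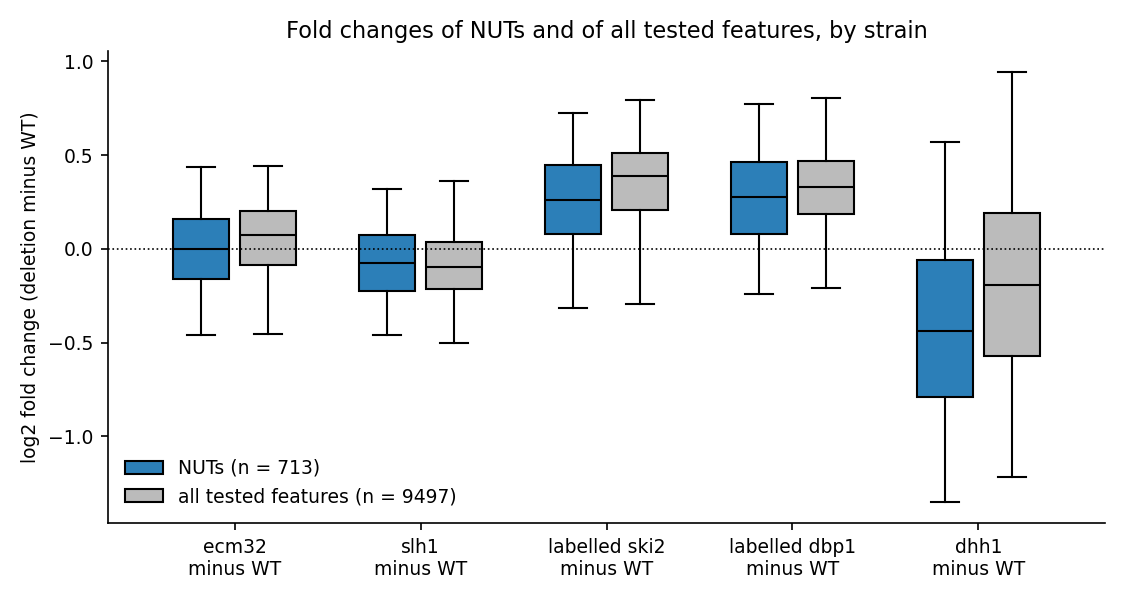
Log2 fold change against WT for the 713 NUTs (blue) and for all 9497 tested features (grey) in each deletion, with boxes at the quartiles, a line at the median and whiskers at the 5th and 95th percentiles. The NUT median lay at -0.44 in dhh1, against -0.20 for all features, and at 0.26 and 0.28 in the libraries labelled ski2 and dbp1, against 0.39 and 0.33.

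The typical NUT was at a lower level in dhh1 than in WT. The median density over the 713 NUTs was 0.0124 and 0.0118 in the dhh1 libraries, against 0.0183 and 0.0222 in WT. Both dhh1 libraries lay below both WT libraries and below the other 8 deletion libraries, which ran from 0.0173 to 0.0269. The exact two-sided permutation p of 0.33 is the smallest that 2 against 2 allows. In single NUTs, 102 were called lower by at least 1 on the log2 scale (14.3%, against 7.88% of all tested features) and 2 by at least 2 (0.281%, against 0.705%). Those called higher by at least 1 were 13 (1.82%, against 4.15%) and by at least 2 were 5 (0.701%, against 0.748%). The lower values were shared with the other noncoding classes at 0.01 or more, since 381 of 1092 XUTs were lower and 17 higher, and 243 of 634 CUTs were lower and 11 higher. Of 5551 protein-coding genes at that density, 1216 were lower and 1170 higher, with a median log2 fold change of -0.03.

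The number of lower NUTs depended on the scaling. With each set of library factors the share of NUTs called lower exceeded that of all features, and with quantile normalization it did not. With factors from protein-coding genes 277 NUTs were lower and 52 higher (38.8% and 7.29%, against 28.9% and 18.3% of all features). With ERCC spike-ins 156 were lower and 12 higher (21.9% and 1.68%, against 13.6% and 3.02%). With quantile normalization, which gives every library the same distribution of values, 98 were lower and 90 higher (13.7% and 12.6%, against 22.1% and 17.9%). With spike-in factors and the first WT library left out, 88 were lower and 49 higher (12.3% and 6.87%, against 6.92% and 20% of all features). That WT library held 1.22% spike-in reads, the least of the 12, against 2.58% in the second WT library. Without the first WT library 206 were lower and 22 higher (28.9% and 3.09%, against 22.7% and 10.1% of all features), and without the second 118 and 33 (16.5% and 4.63%, against 13.5% and 13.4%). Without the first dhh1 library it was 117 and 20 (16.4% and 2.81%, against 13.6% and 9.67%), and without the second 123 and 19 (17.3% and 2.66%, against 14.2% and 8.99%).

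**Figure D2:**
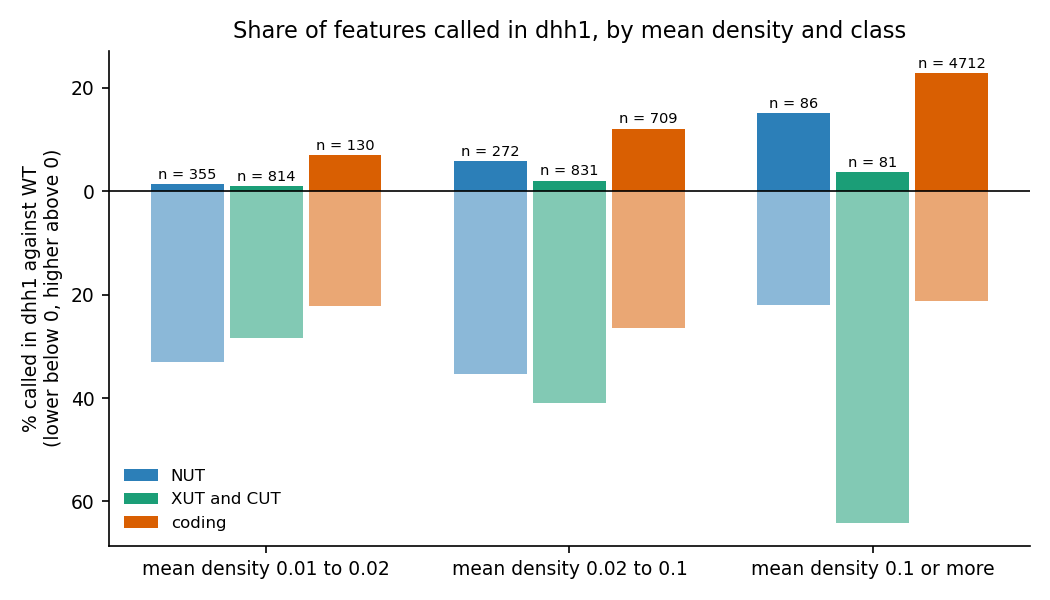
Percentage of features called in dhh1 against WT, lower below the zero line and higher above it, by band of mean density and by class (NUTs, XUTs with CUTs, and protein-coding genes), with the number of features over each bar. Among NUTs 33.0% were lower at 0.01 to 0.02, 35.3% at 0.02 to 0.1 and 22.1% at 0.1 or more, and 1.41%, 5.88% and 15.1% were higher in the same bands.

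The share of NUTs called in dhh1 was set out by density and by partner, beside 24.3% lower and 13.7% higher over all features. Between 0.01 and 0.02, 117 of 355 NUTs were lower and 5 higher, with a median log2 fold change of -0.52, against -0.52 for XUTs with CUTs and -0.31 for protein-coding genes in that band. At 0.02 to 0.1, 96 of 272 NUTs were lower and 16 higher, with a median of -0.44, against -0.58 for XUTs with CUTs and -0.20 for protein-coding genes. At 0.1 or more, 19 of 86 NUTs were lower and 13 higher, with a median of -0.01, against -0.68 for XUTs with CUTs and -0.01 for protein-coding genes. By partner, 142 of the 397 NUTs without one were lower and 13 higher (35.8% and 3.27%), and 73 of the 193 with an XUT, CUT or NUT were lower and 2 higher (37.8% and 1.04%). Of the 93 with a protein-coding gene 17 were lower and 14 higher (18.3% and 15.1%), and of the 30 with a noncoding RNA gene none were lower and 5 higher (16.7%). By length, 91 of 261 NUTs under 1000 nucleotides were lower (34.9%), 72 of 277 at 1000 to 2000 (26%), and 69 of 175 at 2000 or more (39.4%). Of the NUTs called lower in dhh1, 8 were among the 15 that would fall under the minimum without the WT libraries.

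**Figure D3:**
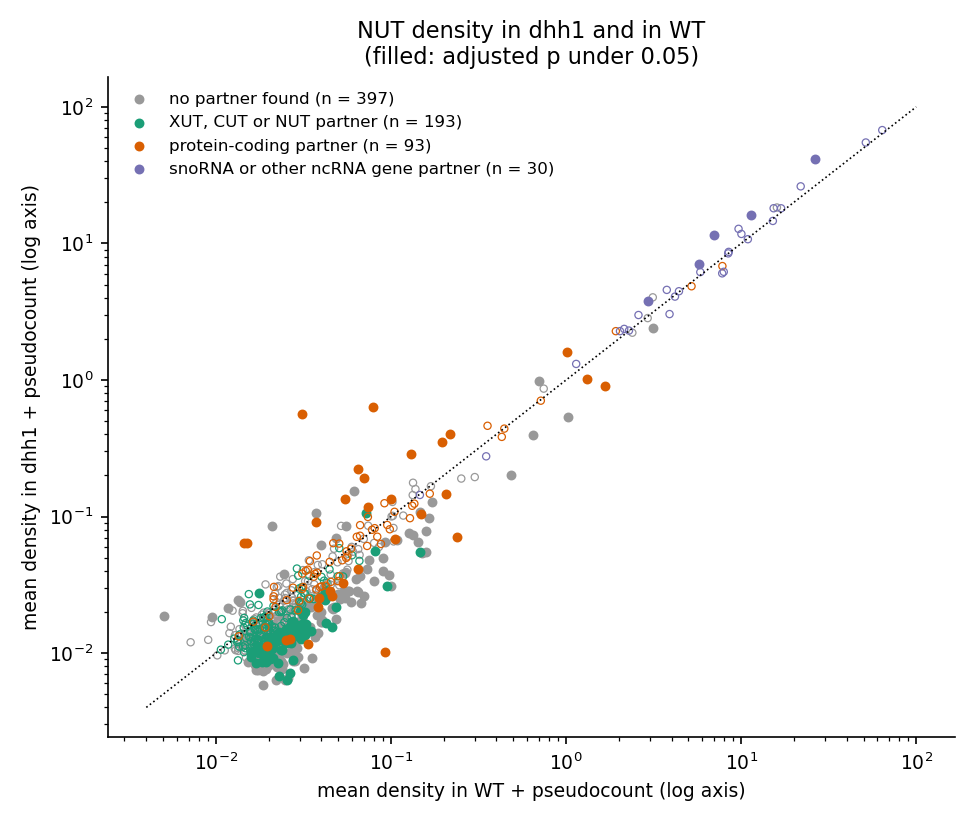
Mean density in dhh1 (vertical) and in WT (horizontal), each plus the pseudocount of 0.00508, on log axes for the 713 NUTs, coloured by partner, with the dotted line at equality. Filled points passed the test; those without a partner or with an XUT or CUT lie mostly below the line, and snoRNA NUTs lie along it at the top right.

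Of the 15 NUTs with the largest rises in dhh1, 9 shared their reads with a protein-coding gene. NUT0227 had densities of 0.524 and 0.597 in dhh1, 0.0910 and 0.130 in the libraries labelled dbp1, 0.0822 and 0.0923 in the libraries labelled ski2, 0.0550 and 0.0646 in slh1, 0.0434 and 0.0567 in ecm32, and 0.0232 and 0.0286 in WT. Every deletion library lay above both WT libraries, and both dhh1 libraries lay above all others. The dhh1 mean was 21.6-fold the WT mean (log2 fold change 4.19, standard error 0.20, limma adjusted p = 1.34e-07). Its reads were equal in all 12 libraries to those of HSP12 (chromosome VI, 107256 to 107585, plus strand), a membrane-associated stress protein, so the 2 entries are the same reads. The changes called in the libraries labelled dbp1 (1.88) and ski2 (1.58) are likewise those of HSP12.

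NUT1459 had 0.621 and 0.628 in dhh1, against 0.0585 and 0.0882 in WT, and 0.0749 to 0.113 in the other 8 libraries. Both dhh1 libraries stood far above the rest (log2 fold change 3.03, standard error 0.18, limma adjusted p = 4.78e-07). It shared 99.6% of its reads with ATG41 (chromosome XVI, 74309 to 74719, minus strand), an autophagy gene. NUT0545 had 0.215 and 0.218 in dhh1, against 0.0539 and 0.0661 in WT, with 97.0% of its reads in ATG33, a gene of mitochondrial autophagy. Its log2 fold change was 1.77, and no other library exceeded 0.0938. NUT0664 had 0.0537 and 0.0646 in dhh1, against 0.00815 and 0.0118 in WT, with 90.6% of its reads in EGO4. NUT0119 had 0.0686 and 0.0499 in dhh1, against 0.0109 and 0.00792 in WT, with 83.3% of its reads in CPP3. Neither pair of groups overlapped, at log2 fold changes of 2.10 and 2.14.

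Further NUTs of this kind rose by 1.13 to 1.47 on the log2 scale. They were NUT1429 with GSP2, a nuclear transport GTPase (1.47), NUT0717 with GCY1, a glycerol dehydrogenase (1.29), NUT0034 with HSP26, a small heat-shock chaperone (1.28), and NUT0838 with YBR053C (1.13). These partners held 93.1%, 80.6%, 95.4% and 96.6% of the reads of their NUT. In all, 14 of the 93 NUTs with a protein-coding partner were higher in dhh1 (15.1%, near the 13.7% of all features), and the partner was called higher for each of the 14.

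**Figure D4:**
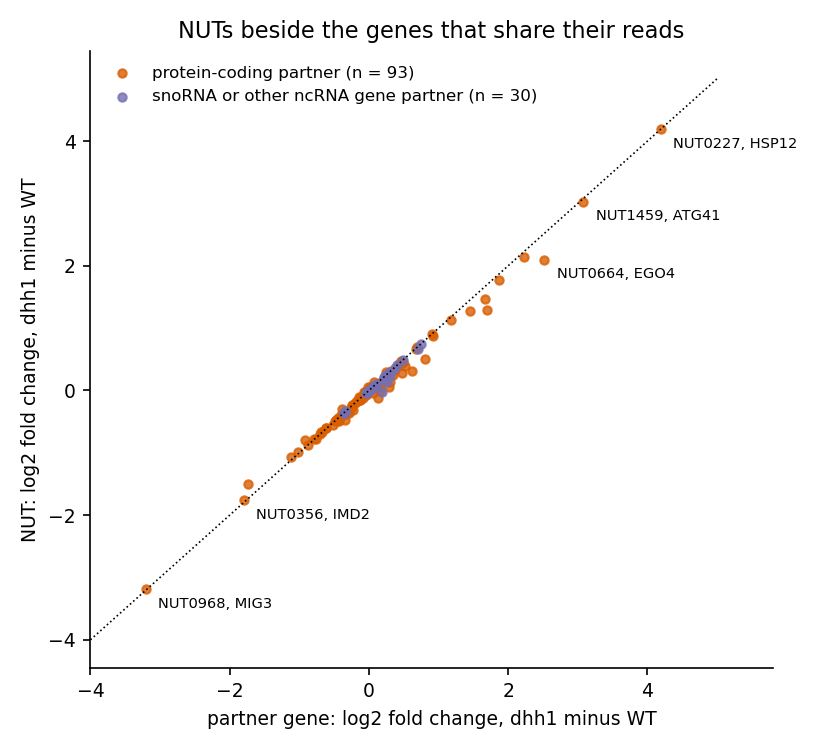
Log2 fold change of a NUT (vertical) and of the gene that shares its reads (horizontal) in dhh1 against WT, for 93 protein-coding and 30 snoRNA or other noncoding RNA partners, with the dotted line at equality. The reads of each pair are shared. NUT0227 with HSP12 lies at 4.19 and NUT0968 with MIG3 at -3.18.

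Over the 93 NUTs with a protein-coding partner, the NUT and its gene differed by a median of 0.03 in log2 fold change in dhh1, and by under 0.1 for 76 of them. The agreement follows from the shared reads and is no separate measurement. Some pairs differed more, as NUT0664 at 2.10, against 2.52 for EGO4, and NUT0717 at 1.29, against 1.69 for GCY1. These NUTs held other reads as well, and the fixed pseudocount shrinks fold changes more at low density. What made up these gaps was not tested.

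The deepest fall was that of NUT0968, which had 0.00447 and 0.00568 in dhh1, against 0.0782 and 0.0968 in WT. The other 8 libraries ran from 0.0481 to 0.107, so the dhh1 libraries lay below all others. The dhh1 libraries held 18 reads together and the WT libraries 227 (log2 fold change -3.18, standard error 0.23, limma adjusted p = 1.84e-06). Its reads were equal in all 12 libraries to those of MIG3 (chromosome V, 210692 to 211876, minus strand), a repressor related to the glucose repressor Mig1. NUT0356 had 0.0700 and 0.0611 in dhh1, against 0.205 and 0.264 in WT, with 0.204 to 0.295 in the other libraries. It fell by 1.75 on the log2 scale (standard error 0.14, limma adjusted p = 5.65e-06). It shared 97.2% of its reads with IMD2 (chromosome VIII, 554396 to 555967, plus strand), an inosine monophosphate dehydrogenase gene known for control by Nrd1-dependent early termination.

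In all, 17 of the 93 NUTs with a protein-coding partner fell (18.3%, against 24.3% of all features). Among them NUT0667, with reads of the ferric reductase gene FRE4, had a log2 fold change of -1.51, and NUT1525, with reads of the peptide transporter gene OPT2, had -1.06. Both were picked out after their values were seen. NUT1166, which shares its reads with URA2, the first enzyme of pyrimidine synthesis, had -0.87 in dhh1, while it was called higher in the libraries labelled ski2 (0.40) and dbp1 (0.47). The medians over all features there were 0.39 and 0.33, and neither rise was called with factors from protein-coding genes. The partner itself was called lower for 16 of the 17.

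The 15 NUTs with the deepest falls included 13 without such a gene partner. NUT0854, listed between MET8 and SDS24, had 0.00151 and 0.00154 in dhh1, against 0.0202 and 0.0211 in WT, and no other library was under 0.0146. It had 8 reads in dhh1 and 78 in WT (log2 fold change -1.96, standard error 0.21, limma adjusted p = 3.37e-05). SDS24 was higher in dhh1 by 1.42 and MET8 had -0.37 there. NUT0321, listed between AIM17 and OPI1, had 0.000956 and 0.00438 in dhh1, against 0.0207 and 0.0330 in WT, and 0.0174 to 0.0342 elsewhere. Its log2 fold change was -2.05 (standard error 0.30, limma adjusted p = 0.000321), whereas AIM17 was higher in dhh1 by 2.14.

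The remaining NUTs of this group fell by 1.64 or more on the log2 scale. NUT0743, listed between the RNA polymerase I genes RPA43 and RPA190, had -1.97, but on 3 reads in dhh1 and 16 in WT. NUT0537 between MEC3 and GUF1 had -1.95, NUT0463 between ECM9 and YKR005C -1.79, NUT0699 between YOR008C-A and the cell wall gene TIR4 -1.69, and NUT0450 between RCI50 and RMA1 -1.68. NUT1433, NUT0059 and NUT0756 followed at -1.66, -1.64 and -1.64. Neighbours went both ways in dhh1, as TIR4 fell by 1.42 and ATP15, listed after NUT0756, rose by 1.68. NUT0961, NUT1010 and NUT0495, at -2.0, -1.89 and -1.72, shared 97.3%, 75.5% and 76.7% of their reads with XUTs. A NUT was named only where neither dhh1 library overlapped WT.

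NUTs without a partner that rose were few. NUT1438, listed between IRC13 and SNR17A, had 0.0612 and 0.0991 in dhh1, against 0.0119 and 0.0198 in WT. The second library labelled dbp1 reached 0.0618, so dhh1 overlapped that strain but not WT (log2 fold change 2.02, standard error 0.41). Its listed neighbour IRC13 went the other way in dhh1, at -1.60. NUT0608, listed between ICY1 and YMR196W, had 0.105 and 0.0960 in dhh1, against 0.0219 and 0.0420 in WT. Both neighbours were also higher in dhh1, by 0.86 and 0.82, while the NUT rose by 1.57. NUT0814, a NUT of 3397 nucleotides listed between GDB1 and ATG13, had 0.157 and 0.141 in dhh1, against 0.0531 and 0.0603 in WT. It rose by 1.32, as GDB1, the glycogen debranching enzyme, rose by 1.40.

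Of the 15 rises named for dhh1, that of NUT0119 rested on 132 reads over the 12 libraries, and at least 3 others also rested on few reads. A count of 0 allows up to 3 reads if reads are independent, and more if both mates of a pair were counted. NUT0032 had 5 reads in dhh1 and 0 in WT, NUT0622 had 21 and 5, and NUT0593 had 33 and 9. They were called at adjusted p-values of 0.00156, 0.0140 and 0.0209 by limma, but NUT0622 lost its call without the first WT library or the second dhh1 library, and NUT0593 without the second WT library or either dhh1 library. The other 28 of the 30 NUTs named for dhh1 kept their calls without any one library of the 2 strains.

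**Figure D5:**
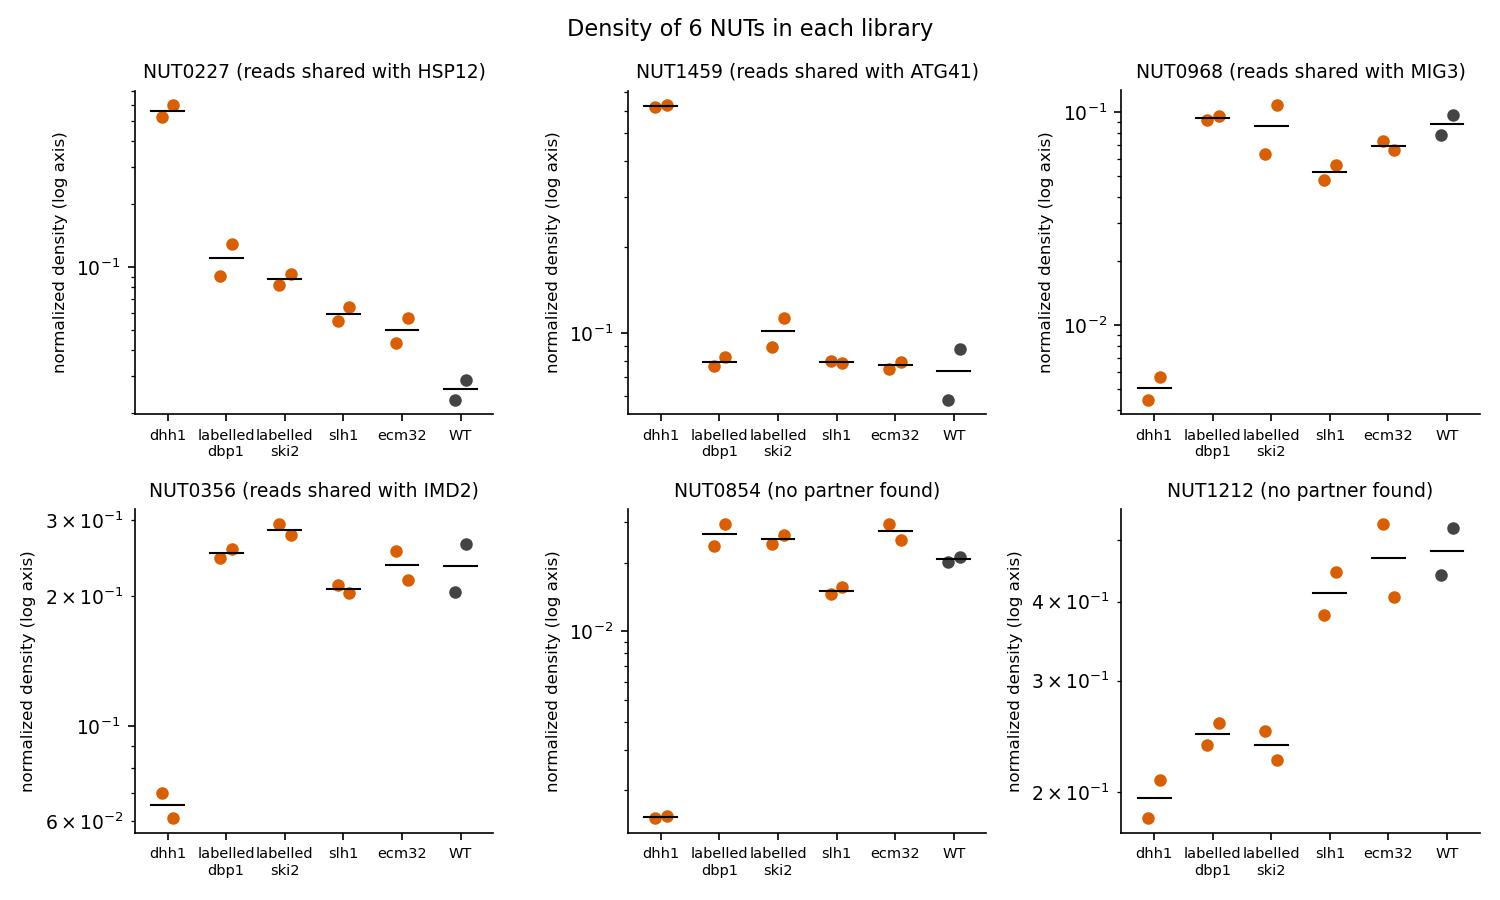
Normalized density (log axis) of 6 NUTs in each of the 12 libraries, with points for libraries and lines for strain means, deletions in orange and WT in dark grey at the right. NUT0227 and NUT1459 were highest in dhh1, NUT0968, NUT0356 and NUT0854 were lowest there, and NUT1212 was low in dhh1 and in the libraries labelled dbp1 and ski2.

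Among the NUTs with a noncoding RNA gene as partner, 5 of 30 were higher in dhh1 (16.7%), a share near the 13.7% of all features. NUT1162, with 91.1% of its reads in SNR190, had 43.9 and 39.4 in dhh1, against 24.2 and 28.3 in WT. It had 34.6 and 39.4 in the libraries labelled dbp1 and 37.3 and 36.0 in those labelled ski2, and was called higher in all 3 comparisons (0.67 in dhh1, 0.49 and 0.48 in the other 2). The libraries of these 3 strains did not overlap WT, ecm32 or slh1, which ran from 24.2 to 30.5. With factors from protein-coding genes, NUT1162 lost its calls for the labels ski2 and dbp1. The only NUTs higher there were NUT0227 for the label ski2, and NUT0227 and NUT0032 for the label dbp1. NUT0607 with SNR11 had a log2 fold change of 0.74 in dhh1, NUT0605 with SNR83 had 0.49, NUT0426 with SNR3 had 0.36 and NUT0859 with SNR43 had 0.30. The snoRNA gene itself passed the test for 3 of the 5.

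In the libraries labelled ski2 and dbp1, nearly all calls were rises that the whole table shared. The median over all features was 0.39 and 0.33 on the log2 scale, so relative to it the NUT medians were -0.13 and -0.05. With factors from protein-coding genes, 1 NUT was higher and 6 lower in the libraries labelled ski2 (0.284% and 0.548% of all features), and 2 higher and 3 lower in those labelled dbp1 (0.295% and 0.421%). With spike-in factors it was 3 higher and 4 lower for the label ski2 (0.168% and 1.04% of all features), and 1 higher and 1 lower for the label dbp1 (0.326% and 0.369%). With quantile normalization it was 2 higher and 6 lower for the label ski2 (0.337% and 0.505%), and 1 higher and 4 lower for the label dbp1 (0.337% and 0.421%). Few of the calls held without the first WT library or without the second library of the strain. Without the first WT library the NUT median was 0.17 and 0.18 for the labels ski2 and dbp1, and without the second it was 0.36 and 0.37. Without the first library of the strain it was 0.34 and 0.37, and without the second 0.18 and 0.18. With all libraries it was 0.26 and 0.28. Of the members that would fall under the minimum without the strain, 5 of 30 were called higher in the libraries labelled ski2 and 5 of 33 in those labelled dbp1. Over all features, 39.3% and 17.2% were called higher there. Between the 2 labels no NUT was called, with 1 feature higher and 1 lower of all 9497 (0.0105% each). The genes that set the labels apart were DBP1 and SKI2. Against WT, DBP1 had log2 fold changes of 0.55 and -3.17 in the libraries labelled dbp1 and ski2, and SKI2 had -6.18 and 0.54.

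NUT1212, a NUT of 256 nucleotides listed between GPM1 and NNR2, fell in 3 strains. It had 0.182 and 0.209 in dhh1, 0.237 and 0.257 in the libraries labelled dbp1, and 0.25 and 0.225 in those labelled ski2, against 0.441 and 0.523 in WT. The ecm32 and slh1 libraries ran from 0.381 to 0.531, so the 3 strains did not overlap the rest. Its log2 fold changes were -1.28 in dhh1, -0.94 in the libraries labelled dbp1 and -1.0 in those labelled ski2. With factors from protein-coding genes the last 2 were -1.28 and -1.43 and stayed past the threshold. The neighbour GPM1, a glycolytic enzyme at a mean density of 70.2, had -0.47 in dhh1. NUT0639, listed between POP1 and ADE12, was also lower in all 3, at -0.76, -0.51 and -0.43, from densities of 0.0952 and 0.0892 in dhh1, 0.105 and 0.117 in the libraries labelled dbp1 and 0.124 and 0.111 in those labelled ski2, against 0.150 and 0.170 in WT. The dbp1-labelled call was lost whichever of the 4 libraries was left out.

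The other 5 of the 7 NUTs lower in the libraries labelled ski2 were NUT0226 (-0.70), NUT1137 (-0.67), NUT0738 with SNR5 (-0.67), NUT0270 with SNR46 (-0.45) and NUT1051 (-0.37), the last of which was picked out after its values were seen. NUT0738 had 6.43 and 3.83 there, against 7.12 and 8.78 in WT, and its call was lost without the second of these libraries, without either WT library and under 4 of the other settings. The calls of NUT0226 and NUT1137 were lost whichever library was left out. NUT1269 (-0.54) was lower in the libraries labelled dbp1, at an adjusted p of 0.0499 by limma, and of the 4 fits that left out a library, 1 kept the call. The largest rises after HSP12's NUT0227 were those of scarce NUTs. NUT1421 had 4 reads in the libraries labelled ski2 and 1 in WT, NUT0032 had 2 and 0, NUT1441 had 17 and 5, and NUT0622 had 16 and 5. With the label dbp1, NUT0032 had 3 reads and 0 in WT, NUT0407 had 12 and 3, NUT1441 had 21 and 5, and NUT0543 had 30 and 8. Of the named calls, 1 of 10 in the libraries labelled ski2 and 1 of 8 in those labelled dbp1, NUT0227 in each case, held without any one library.

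Shared calls across the 3 strains were counted without a test, since they share the WT libraries. NUTs called higher in dhh1 and in the libraries labelled ski2 and dbp1 were 8 in number: NUT0015, NUT0032, NUT0227, NUT1162, NUT0593, NUT0622, NUT0734 and NUT1507. That is 1.12% of the NUTs, against 4.83% of all tested features. With factors from protein-coding genes, NUT0227 alone of these was called in all 3. NUT1212 and NUT0639 were the 2 called lower in all 3, which is 0.281%, against 0.2% of all features. No NUT was called the same way in 4 or more deletions, as were 0.0211% of all features, and 379 were called in none (53.2%, against 37.6%).

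In ecm32, the NUTs of smallest p were NUT0032, NUT0226 and NUT0227. NUT0032 had 5 reads in ecm32 and 0 in WT, NUT0226 had 0.00490 and 0.00607 against 0.0220 and 0.0217 in WT, and NUT0227 had a log2 fold change of 0.83. Their limma adjusted p-values were 0.0735, 0.134 and 0.304. In slh1, they were NUT0227 (1.07), NUT0032, with 4 reads in slh1 and 0 in WT, and NUT1349 (-0.87), with adjusted p-values of 0.162, 0.308 and 0.471 by limma. NUT1349 had 0.0167 and 0.0140 in slh1, against 0.0261 and 0.0394 in WT, so these groups did not overlap although the test was not passed. The NUT medians were -0.000298 in ecm32 and -0.08 in slh1, against 0.08 and -0.09 for all features.

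Comparisons between deletions do not use the WT libraries. In dhh1, 413 NUTs were lower and 21 higher than in the libraries labelled dbp1, where 50.0% and 6.65% of all features were. It was 412 and 21 against the libraries labelled ski2 (53.1% and 5.83% of all), 170 and 32 against slh1 (15.3% and 15%), and 228 and 30 against ecm32 (28.3% and 11.7%). The libraries labelled dbp1 had 114 NUTs higher and 5 lower than slh1 (43.8% and 0.369% of all features), and 19 higher and 3 lower than ecm32 (7.21% and 0.221%). Those labelled ski2 had 116 higher and 6 lower than slh1 (48.9% and 0.516%), and 19 higher and 5 lower than ecm32 (13.3% and 0.263%). Between slh1 and ecm32, 1 NUT was lower in slh1 and none higher, against 0.463% and 0.0421% of all features. In dhh1, 129 NUTs were below and 16 above each of the other 5 strains, which is 18.1% and 2.24% of NUTs, against 12.5% and 4.86% of all features. Of the 16 NUTs above all others, 11 shared reads with a protein-coding gene (HSP12, ATG41, CPP3, EGO4, ATG33, GSP2, GCY1, HSP26, YBR053C, EMI2 and OPY2) and NUT0607 with SNR11. No partner was found for NUT0608, NUT0814, NUT1037 and NUT1438.

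Some abundant NUTs hardly moved. NUT1196, listed between URA8 and SOD1, had strain means within 0.17 of each other on the log2 scale, with densities of 0.0370 to 0.0542 over the 12 libraries. NUT0692, with 99.5% of its reads in SNR81, had 2.23 to 2.81 and a range of 0.24. In NUT1196, as in NUT0490, libraries of the same strain differed by more than the strain means did.

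The NUTs with neither a protein-coding nor a noncoding RNA gene as partner were also summed by library. They held 0.612 and 0.579% of reads in dhh1, 0.592 and 0.573% in the libraries labelled dbp1, 0.523 and 0.574% in those labelled ski2, 0.569 and 0.627% in slh1, and 0.569 and 0.585% in ecm32, against 0.596 and 0.598% in WT. The dhh1 and WT libraries overlapped in this share, with an exact permutation p of 1.0, although their median density was 0.0103 and 0.0104 in dhh1, against 0.0157 and 0.0194 in WT. In ecm32 and in the libraries labelled ski2 and dbp1 both libraries lay below WT, with exact p-values of 0.33, the smallest possible, and slh1 overlapped WT. The group includes NUT1342, at a mean density of 17.2, beside a summed density of 40.4 to 55.4 per library. A sum can thus rest on few abundant NUTs, whereas the median does not.

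The genes that make and clear NUTs were read from the same fit. Of 5 genes of the Nrd1-Nab3-Sen1 pathway, 1 was higher and 1 lower in dhh1, with a median log2 fold change of -0.13, against -0.20 for all features. SEN1, the termination helicase, fell by 0.46, and SSU72, a phosphatase of the RNA polymerase II tail, rose by 0.94, while NRD1 (0.13), NAB3 (-0.13) and PCF11 (-0.31) did not pass. Of 18 genes of TRAMP and the nuclear exosome, 2 were lower and 1 higher in dhh1, where 24.3% and 13.7% of all features were. Among the 5551 protein-coding genes, 1216 were lower and 1170 higher there. MTR4, the TRAMP helicase, fell by 0.69, RRP6, the nuclear exonuclease, fell by 0.42, and RRP40, an exosome cap subunit, rose by 0.42. Of 13 cytoplasmic decay genes, 4 were lower and 3 higher in dhh1. The decapping enzyme DCP2 fell by 0.90, the exonuclease XRN1 fell by 0.60, and the decapping activator PAT1 rose by 0.93.

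All 5 genes of the Nrd1 pathway, 13 of the 18 and 11 of the 13 were called higher in the libraries labelled ski2, and none was lower. There 39.3% of all features were higher, and 61.1% of the 5551 protein-coding genes at 0.01 or more. For the label dbp1, 1, 3 and 3 genes were higher, with SKI2 lower. Beside these stood 17.2% of all features and 1389 of the 5551 protein-coding genes. None of these genes was called in ecm32 or slh1. With factors from protein-coding genes, only 0.284% and 0.295% of all features were higher for the labels ski2 and dbp1. The genes of these lists were not counted again with those factors. Whether the levels of these genes bear on the NUTs was not tested.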

How the data were processed

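Per the labels, total RNA of 6 strains was sequenced after ribosomal RNA depletion with a stranded kit, 2 libraries each. Build R64, featureCounts 2.0.0, HISAT2 2.2.0, DESeq2 and Trim Galore are named in the submitters' processing notes, with no roles. The authors deposited signal values: normalized densities for 10891 features in 12 library columns, and strain means, which were not used. Whole reads (100% of 124137 values above 0, tolerance 1e-06) and counted lengths were recovered from the densities. Of the reads above 0, 62.9% are even in the NUTs, so the 2 mates of a pair may be counted singly and counting errors are understated.

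Densities were tested with limma-trend (limma 3.58.1, R 4.3.3) on log2(density + 0.00508), the 10th percentile of values above 0. The 9497 features with a higher mean density, without spike-ins, and all 12 libraries entered 1 model with 6 residual and 5.75 prior degrees of freedom. Benjamini-Hochberg adjustment was made within each comparison. P-values rest on the spread between 2 libraries a strain. Fold changes understate scarce features. In data simulated with 50 features per class, 50 rises of 4-fold, 38 falls of 4-fold, 17 rises of 2-fold and 22 falls of 2-fold were called. The changed features were drawn from all features at 0.01 or more, not from NUTs. The spread was fixed, and only these features changed, in dhh1. These rates are thus not the power for NUTs in the real data.

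The table holds densities, so the planned count model was not used. Named NUTs were the 10 of highest mean density. Added were up to 15 higher and 15 lower in dhh1, and up to 5 each in the other strains, by size among called NUTs with both libraries outside both WT libraries. Where none was called, the 3 of smallest p were named. The 3 of smallest range of strain means in the upper 25% of density and the 3 on either side of the minimum completed them. Members, lists and rules were chosen with earlier results of these data known. Alternatives covered pseudocount, filters, factors, quantile normalization, the model, voom on reads and single libraries.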

Additional observations from a re-analysis of the deposited data

How the results depend on the processing

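The relative median below is the median log2 fold change of NUTs minus that of all features. In ecm32, the 0 calls became 1 with a pseudocount of 0.001, with protein-coding factors, with only the 2 strains in the fit, and with spike-in factors without the first WT library, and 3 with spike-in factors. Its relative median of -0.08 was -0.0153 with quantile normalization and -0.14 with spike-ins without the first WT library, and -0.0987 to -0.0381 without single libraries. In slh1, the 0 calls became 1 with a pseudocount of 0.001, spike-in factors or quantile normalization, and the relative median of 0.02 was -0.0336 with spike-ins without the first WT library. For the label ski2, the 81 calls became 7 with protein-coding factors, 7 with spike-ins, 8 with quantile normalization, 0 with only the 2 strains and 4 with spike-ins without the first WT library, and 1 to 90 without single libraries. The relative median of -0.13 was -0.0802, -0.0449 and -0.0191 with the first 3, and -0.16 to -0.0875 without single libraries. For the label dbp1, the 50 calls became 5, 2, 5, 16 and 2 under the same settings, and 1 to 89 without single libraries, and the relative median of -0.05 was -0.10 with a pseudocount of 0.02 and -0.00542 with spike-ins. In dhh1, the 266 calls became 168 with spike-ins, 137 with spike-ins without the first WT library, 144 among NUTs at 0.02 or more, and 137 to 228 without single libraries. The relative median of -0.24 was -0.31 and -0.11 with pseudocounts of 0.001 and 0.02, -0.18 among NUTs at 0.02 or more, 0.00579 with quantile normalization, -0.34 with voom and -0.31 with spike-ins without the first WT library. The causes were not tested, except that fewer samples or NUTs enter by construction.

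Replicate numbers paired no samples (15 correlations of deviations, -0.08 to 0.07), and with the replicate as a block 90, 43 and 270 NUTs were called in the libraries labelled ski2, those labelled dbp1 and dhh1, against 81, 50 and 266. For the 54 named values, 918 alternatives gave 789 with the same call, 121 that lost it, 8 that gained it and none of the other direction. The 54 from NUTs at 0.02 or more reuse the main fit, so their calls could not change. The fits without trend, with the replicate block and with only the 2 strains leave fold changes as they were. Their directions could not change either. Voom and the spike-ins without the first WT library were chosen after seeing the data, and the 2 count-model alternatives were not run because the table holds densities. Depth limits scarce NUTs, at a median of 17 to 39 reads per library, and shared reads limit what a NUT value can be assigned to.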
